A study of Mus musculus with 5 samples.

Results

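The genes described here encode the voltage-gated potassium, calcium and sodium channels and the other potassium channels of the mouse genome. They were taken as every gene whose symbol in the array's probe annotation began with Kcn, Cacna, Cacnb, Cacng or Scn and followed those families' numbering, which gave 98 genes with 140 probes, of 15967 named genes and 24613 probes on the array. Transcripts were measured with Illumina bead arrays. The cells were F9, an embryonal carcinoma line of the mouse that turns into extra-embryonic endoderm when exposed to retinoic acid. A double knockdown of Sox7 and Sox17 (3 arrays) was compared with F9 control cells (2 arrays), and all 5 samples carry the same retinoic acid treatment label, without dose or duration. The labels do not describe the knockdown method or the handling of control cells. They also tie no replicate number to its own culture, so p-values reflect the variation among these 5 samples alone, and that variation may be technical.

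Ion channels set the voltage across the cell membrane. Potassium channels let potassium leave the cell and hold the voltage negative. Inward rectifiers and two-pore-domain channels do this at rest, and voltage-gated ones do it after excitation. Voltage-gated calcium channels turn a change of voltage into calcium entry, and voltage-gated sodium channels carry the fast upstroke of the action potential in nerve and muscle. Many voltage-gated pores are joined by auxiliary subunits that alter their gating or their amount at the surface. Sox7 and Sox17 are related transcription factors of endoderm and endothelium, whose DNA-binding domain recognises short AT-rich sites.

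Of the channel genes that differed between the groups, the promoters of 3 are shown, because they belong to the gene with the largest fall and to a pair of sister genes that both rose. Each window holds 300 bases, from 250 before to 50 after a transcription start, as given by RefSeq for build GRCm38.p6, and capitals mark the CpG dinucleotides.
Kcnk13, chr12:99964249-99964548, plus strand: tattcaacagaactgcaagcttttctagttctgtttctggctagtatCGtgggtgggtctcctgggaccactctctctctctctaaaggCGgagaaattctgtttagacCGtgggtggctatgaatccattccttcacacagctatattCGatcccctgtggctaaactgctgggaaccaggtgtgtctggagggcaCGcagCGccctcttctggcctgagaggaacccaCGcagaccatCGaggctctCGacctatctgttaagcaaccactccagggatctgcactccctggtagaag
Cacna2d1, chr5:15934441-15934740, plus strand: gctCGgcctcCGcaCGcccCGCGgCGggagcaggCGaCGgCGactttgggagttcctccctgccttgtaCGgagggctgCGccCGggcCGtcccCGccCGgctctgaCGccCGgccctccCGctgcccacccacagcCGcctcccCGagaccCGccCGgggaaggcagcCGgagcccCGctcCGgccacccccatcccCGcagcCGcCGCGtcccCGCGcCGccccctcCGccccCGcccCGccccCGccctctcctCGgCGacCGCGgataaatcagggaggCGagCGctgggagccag
Cacna2d2, chr9:107399630-107399929, plus strand: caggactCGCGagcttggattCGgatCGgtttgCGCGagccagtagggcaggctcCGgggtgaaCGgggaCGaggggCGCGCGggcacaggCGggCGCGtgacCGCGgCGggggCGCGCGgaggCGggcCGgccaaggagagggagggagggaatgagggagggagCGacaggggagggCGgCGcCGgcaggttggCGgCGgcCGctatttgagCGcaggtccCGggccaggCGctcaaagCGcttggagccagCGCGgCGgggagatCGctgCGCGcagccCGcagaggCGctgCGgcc
The windows differ in composition. That of Kcnk13 holds 9 CpG dinucleotides and 52.7% G or C, those of Cacna2d1 and Cacna2d2 hold 42 and 43 CpG and 80% and 75.7% G or C, and the median of all 32851 promoter windows in the table is 7 CpG and 52.7% G or C. Windows with 40 or more CpG make up 3.91% of the table. The window of Kcnc4, which fell, holds 17 CpG and 66.7% G or C, and that of Kcnj12, which rose, holds 4 CpG and 57%. Kcng3 and Kcnc1, above background on no array, have 49 and 41 CpG. The contrast of the 3 printed windows is thus not one of rises against falls. The letters ACAAT, the core of many Sox sites, occur on neither strand of these 3 windows, nor in those of Kcnc4 and Kcnj12, the other called genes with a window in the table. They occur in 31.0% of all windows. Most windows of the other channel genes lack them as well, so their absence does not set the called genes apart. A match or its lack describes only these letters in these windows. Of the 98 channel genes 75 were matched to a window, or 76.5%, which is too few to compare composition over the whole set. For 21 of these 75 the table held several windows, and only the first listed was used, so other starts were not searched.

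Sox17 and Sox7 themselves were lower on all 3 knockdown arrays than on either control array. Sox17 averaged 278 ± 33.1 intensity units in knockdown cells and 1765 ± 46.3 in control cells (SD, n = 3 and n = 2), which is 15.8% of the control mean. Sox7 averaged 455 ± 45.7 in knockdown cells and 1229 ± 109 in control cells, which is 37.0% of the control mean. The values are normalized intensities with background already subtracted, and the 5 arrays share 1 distribution, so differences in total RNA cannot be seen. Differences are given as knockdown minus control on the log2(intensity + 16) scale, which understates the change of dim probes. Each was tested with limma across all tested probes, and "called" means a Benjamini-Hochberg adjusted p below 0.05. Arrays of 1 group correlated at 0.993 to 0.994 over all probes on this scale, and arrays of different groups at 0.985 to 0.987. Endoderm markers were present in control cells and lower in knockdown cells, apart from Afp, which was not tested. Of 10 tested markers of extra-embryonic endoderm all 10 fell, where 7.98% of all tested genes were called lower. Among the 10 was the endocytic adaptor gene Dab2, at 2970 ± 290 in knockdown cells and 16120 ± 554 in control cells. The markers of F9 stem cells were also above background, 5 of 5, with the pluripotency gene Nanog at 14001 ± 1082 in knockdown cells and 10157 ± 374 in control cells (1 of 5 called, higher, with adjusted p from 0.058 to 0.19 when any 1 array was left out).

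Most channel genes gave no signal above background in these cells. A probe was taken as above background on an array when its intensity exceeded 20.1 to 20.2, estimated from the array's own negative values. If noise were symmetric around 0, 5% of it would pass this level. That symmetry was not tested, so the true share may differ. Of the 98 channel genes, 37 passed this level on 2 or more arrays of either group, and these were tested. That is 37.8% of the channel genes, against 60.7% of all named genes. Only 20 channel genes were above it on all 5 arrays. The other 61 comprised 53 that were above it on no array by any probe and 8 that were above it on 1 array. Their highest single value was 33.8 intensity units. Near the limit, 7 of the tested genes passed on exactly 2 arrays. A gene below background here may still be expressed at a level this array cannot show.

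**Figure D1:**
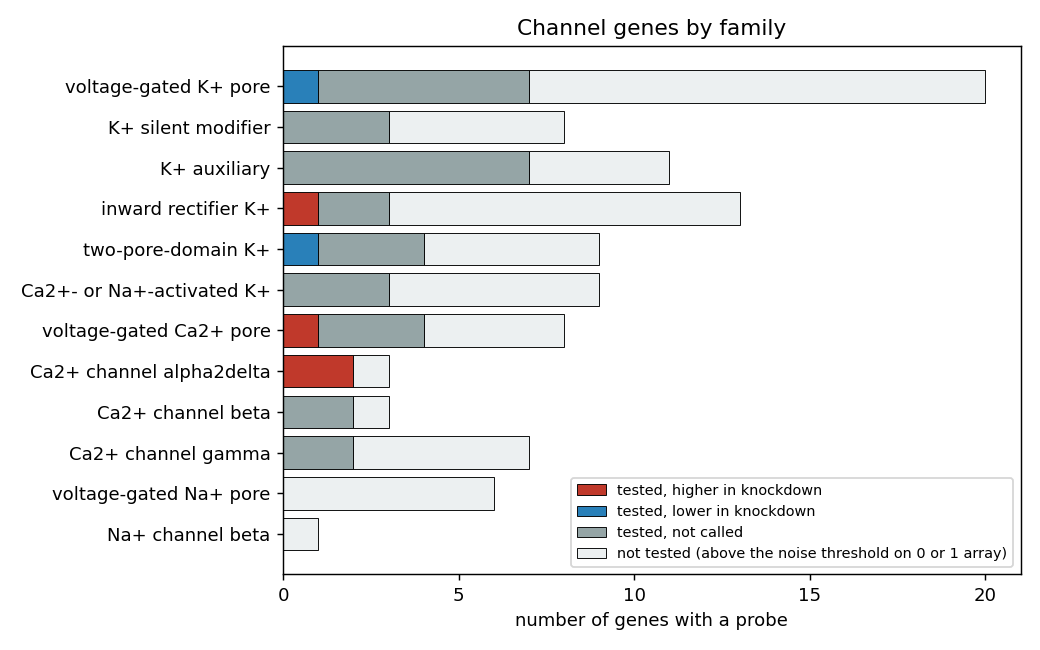
Channel genes by family: bars count genes with a probe (horizontal axis), split into tested genes that were higher in knockdown, lower in knockdown or not called, and genes not tested. None of the 7 sodium channel genes was tested, and the calcium channel genes that were called were all higher in knockdown.

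The families differed in how many members were seen. None of the 7 sodium channel genes was tested. They include the pore genes Scn1a, Scn3a and Scn8a of central neurons and Scn10a and Scn11a of sensory neurons. Of 20 voltage-gated potassium pore genes 7 were tested, of 13 inward rectifiers 3, of 9 two-pore-domain genes 4, and of 9 genes of the calcium- or sodium-activated family 3. Of 11 potassium channel auxiliary genes 7 were tested, and of 8 silent modifier genes, which make no channel alone, 3 were tested. Of 8 calcium channel pore genes 4 were tested, of 3 alpha2delta genes 2, of 3 beta genes 2 and of 7 gamma genes 2. Among the genes not tested were the cardiac potassium channel genes Kcnq1 and Kcne1, the L-type calcium channel genes Cacna1c and Cacna1d, the ATP-sensitive pore genes Kcnj8 and Kcnj11, and Kcnma1, the large-conductance calcium-activated channel.

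Few of the tested channel genes changed, and they went both ways. Kcnk13 and Kcnc4 fell, and Cacna2d1, Cacna2d2, Cacna1h and Kcnj12 rose. That is 6 of 37, or 16.2%, where 17.0% of all 9685 tested genes were called. At an unadjusted p below 0.05 there were 12 of 37, where 33.4% of all tested genes passed. By direction, 4 of 37 rose (8.99% of all genes) and 2 of 37 fell (7.98% of all genes). The share is near the background in each direction, so the number of changed channel genes is not a result about these families. Values of the groups were fully separate for 17 of 37 channel genes, or 45.9%, against 51.6% of all tested genes. The median difference was -0.05 for the channel genes and 0.00 for all genes, and the median size of the difference was 0.23 and 0.21. In bulk RNA, fewer cells that carry a transcript and less transcript per cell cannot be told apart. With every probe tested and no filter on dim ones, Kcnk13 alone was called, so 0 rose and 1 fell. Fits with 1 array fewer have fewer degrees of freedom. In them 2 genes rose when either control array or knockdown replicate 2 was omitted, 3 rose when knockdown replicate 1 was omitted and 5 when knockdown replicate 3 was. The number that fell was 2 without knockdown replicate 3 and 1 without any other array.

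**Figure D2:**
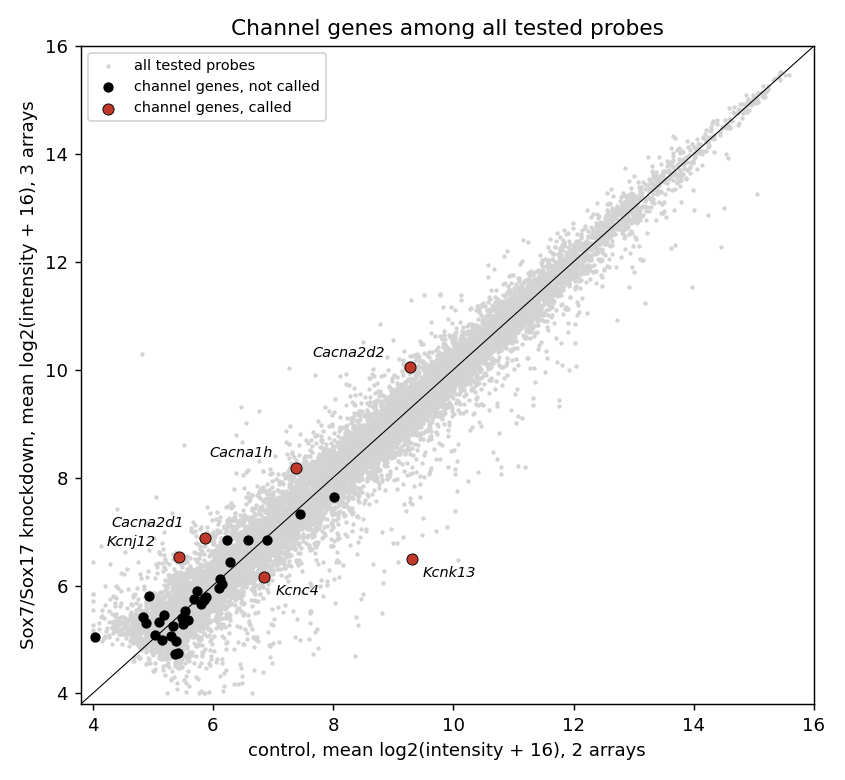
Each tested channel gene, by its mean log2(intensity + 16) in control cells (2 arrays, horizontal axis) and in Sox7/Sox17 knockdown cells (3 arrays, vertical axis), over all tested probes in grey, with a line of equal level. Kcnk13 lies far below the line, 4 called genes lie above it and Kcnc4 below it, and the channel genes not called lie on both sides of it, between -0.67 and 1.01 from it, with the widest gaps (such as Kcnk4 and Cacng7) at low levels.

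The two-pore-domain gene Kcnk13 had by far the largest change of the channel genes. It encodes THIK-1, a potassium channel inhibited by halothane and known for the resting conductance of microglia. Its probe gave 80.1, 81.8 and 62.1 intensity units in the knockdown arrays, against 655 and 583 in the control arrays. All 3 knockdown arrays were thus far below both control arrays, yet above background. Kcnk13 fell by 2.81 on the log2 scale (SE 0.137, 95% interval -3.15 to -2.48, limma adjusted p = 0.00081), and its mean intensity in knockdown cells was 12.1% of that in control cells. Counted over all tested genes it had the 7th largest fall. No single array carried the call (adjusted p 0.0035 to 0.014 with 1 left out). A second Kcnk13 probe was below background on all 5 arrays, between -21.8 and 0.83, so the fall rests on 1 probe. Probe sequences were not used here, so what separates the probes was not tested.

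The other two-pore-domain genes showed smaller differences. Kcnk1, which encodes the weakly inward-rectifying TWIK-1, gave 207, 182 and 167 in knockdown arrays and 257 and 232 in control arrays. Its groups did not overlap, but the difference of -0.38 (95% interval -0.67 to -0.08) was not called (adjusted p = 0.092). Kcnk5, the pH-sensitive TASK-2, gave 102, 90.9 and 105 in knockdown arrays and 107 and 99.5 in control arrays, which overlap. Its difference was -0.05 (95% interval -0.31 to 0.21), and a second tested probe differed by -0.07. Kcnk4, the mechanically gated TRAAK, was above background on 2 knockdown arrays and no control array, with 29.5, 24.6 and 3.75 in knockdown arrays and -4.63 and 1.01 in control arrays. It was thus tested only because of the knockdown arrays, and it was not called (limma adjusted p = 0.11).

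**Figure D3:**
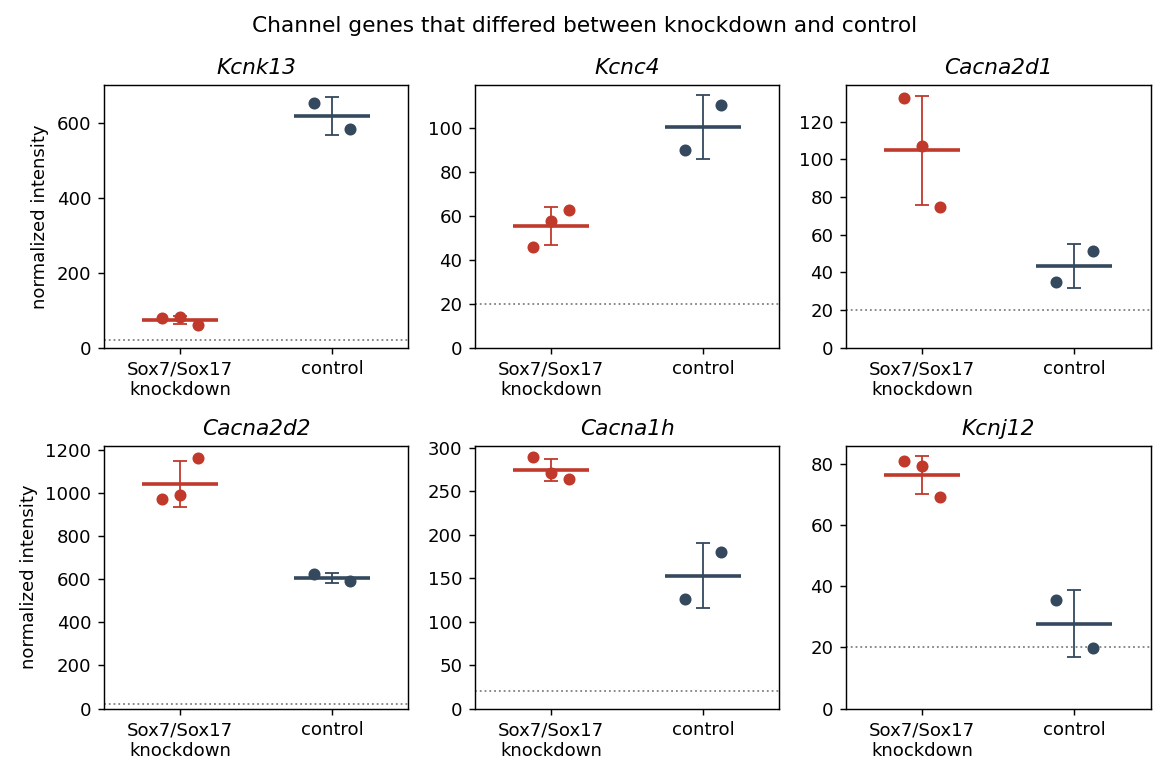
Normalized intensity on every array for the 6 called channel genes, with knockdown (3 arrays) left and control (2 arrays) right. Points are arrays, horizontal bars means, whiskers 1 SD, and the dotted line the noise threshold near 20.2. In each panel the groups do not overlap, and 1 of the 2 control values of Kcnj12 lies at the threshold.

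Among the voltage-gated potassium pore genes 1 of 7 changed. Kcnc4, which encodes the fast-inactivating Kv3.4, gave 46.1, 57.9 and 62.8 in knockdown arrays and 90.3 and 111 in control arrays. All knockdown values were below both control values. Kcnc4 fell by 0.70 (SE 0.145, adjusted p = 0.026), and its mean intensity in knockdown cells was 55.3% of that in control cells. It kept its call only when knockdown replicate 3 was the array omitted. The adjusted p was 0.067 and 0.15 without control replicate 1 and 2, and 0.055 and 0.064 without knockdown replicate 1 and 2. A second Kcnc4 probe was below background on every array.

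Kcna6, which encodes the delayed rectifier Kv1.6, gave 118, 98.8 and 83.0 in knockdown arrays and 51.6 and 67.4 in control arrays at the probe that stands for the gene. The groups did not overlap. The difference of 0.62 (SE 0.165, 95% interval 0.21 to 1.02) missed the threshold, at adjusted p = 0.056. A second, dimmer probe gave 40.3, 67.7 and 61.0 in knockdown arrays and 19.8 and 26.2 in control arrays, and its difference of 0.87 was called (adjusted p = 0.032). Another differed by -0.02, but it was above background on only 2 arrays, and the last was not tested. Kcna3, the Kv1.3 channel known from T cells, gave 37.3, 57.4 and 56.4 in knockdown arrays and 51.0 and 60.1 in control arrays. These overlap, and its difference was -0.12 (95% interval -0.54 to 0.29). Kcnh1, an ether-a-go-go channel gene, was just above background on both control arrays and on no knockdown array. It was thus tested only because of the control arrays. Its difference of -0.24 (95% interval -0.47 to -0.01) was not called (limma adjusted p = 0.14). The others tested, Kcnc2, Kcnh7 and the M-current gene Kcnq3, differed by -0.14 to 0.16 and were not called.

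Of the inward rectifiers, Kcnj12 rose. It encodes Kir2.2, which helps to hold the resting voltage of heart and skeletal muscle. Its probe gave 80.8, 79.2 and 69.3 in knockdown arrays and 35.6 and 20.0 in control arrays. All knockdown arrays were above both control arrays, and control replicate 2 was below background. The rise was 1.10 (SE 0.171, 95% interval 0.68 to 1.52, adjusted p = 0.011), which is 2.14-fold on the log2(intensity + 16) scale. Its call was kept whichever array was left out (adjusted p 0.017 to 0.048). Kcnj14 and Kcnj6, an inward rectifier and a G-protein-gated one, had values near background that overlapped between the groups and differed by -0.01 and -0.17.

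The calcium channel genes gave 3 rises and 0 falls among 10 tested, where 8.99% of all tested genes rose and 7.98% fell. Both tested alpha2delta genes rose. These encode extracellular subunits that raise the number of high-voltage-activated calcium channels at the surface and that bind gabapentin. Cacna2d2 gave 973, 989 and 1162 in knockdown arrays and 624 and 590 in control arrays. The lowest knockdown value was well above the highest control value. Its rise was 0.76 (SE 0.117, adjusted p = 0.011), or 1.69-fold on the same scale, and omitting either control array ended the call (adjusted p = 0.059 and 0.079). Cacna2d1 gave 133, 107 and 74.9 in knockdown arrays and 35.0 and 51.5 in control arrays. The groups did not overlap, though the knockdown arrays spread widely. Its rise was 1.01 (SE 0.233, adjusted p = 0.036), or 2.02-fold on that scale. The call was lost without any 1 array other than knockdown replicate 3 (adjusted p = 0.072 to 0.17) and with an offset of 1 (adjusted p = 0.066). Cacna2d3, the remaining alpha2delta gene on the array, was not tested. The promoters of both sisters that rose, printed above, are CpG-rich, as is that of Cacna2d3, with 41 CpG.

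Of 4 tested calcium pore genes 1 rose. Cacna1h encodes Cav3.2, a T-type channel that opens at small depolarisations. It gave 289, 271 and 264 in knockdown arrays and 126 and 180 in control arrays. The knockdown arrays lay close together and above both control arrays. Its rise was 0.80 (SE 0.153, adjusted p = 0.021), or 1.74-fold on the log2(intensity + 16) scale. The call was lost without any 1 array other than control replicate 2 (adjusted p = 0.058 to 0.078). Cacna1g, the T-type sister Cav3.1, gave 32.1, 32.1 and 18.3 in knockdown arrays and 14.5 and 10.6 in control arrays. It was above background on 2 knockdown arrays and no control array, and was thus tested only because of the knockdown arrays. Its difference of 0.59 was not called (limma adjusted p = 0.077), and its 2 other probes were not tested. Cacna1a and Cacna1b, neuronal P/Q- and N-type pores, stayed near background and differed by 0.22 and -0.10. The intracellular beta subunit genes Cacnb1 and Cacnb2 differed by 0.01 (95% interval -0.30 to 0.33) and -0.13 (95% interval -0.37 to 0.12). The gamma genes Cacng1 and Cacng7 differed by -0.23 and 0.87, the last with control values of 42.7 and -0.29 and an interval from -0.41 to 2.16.

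None of 7 potassium channel auxiliary genes, 3 silent modifiers or 3 calcium-activated genes was called by limma (unadjusted p was below 0.05 for Kcns2 alone among these). Kcnab2, a cytosolic beta subunit of Kv1 channels, gave 113, 101 and 84.5 in knockdown arrays and 76.8 and 82.2 in control arrays, a difference of 0.27 (95% interval -0.05 to 0.59). Its sister Kcnab3 gave 122, 167 and 151 in knockdown arrays and 151 and 165 in control arrays, a difference of -0.11 (95% interval -0.46 to 0.24). Both intervals include 0. Kcnip3, a calcium-binding partner of Kv4 channels also known as the repressor DREAM, had 79.2, 81.4 and 55.1 in knockdown arrays, within the 85.6 and 44.4 of control arrays. Kcnf1, a silent modifier, and Kcnn2, the small-conductance channel SK2, differed by -0.09 (95% interval -0.60 to 0.42) and -0.15 (95% interval -0.42 to 0.13). Kcns2, a silent modifier, and Kcnn1, the small-conductance channel SK1, were above background on both control arrays and no knockdown array. Both were thus tested only because of the control arrays. They differed by -0.42 (95% interval -0.76 to -0.08) and -0.62 (95% interval -1.48 to 0.23). Neither was called (limma adjusted p = 0.098 and 0.28).

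**Figure D4:**
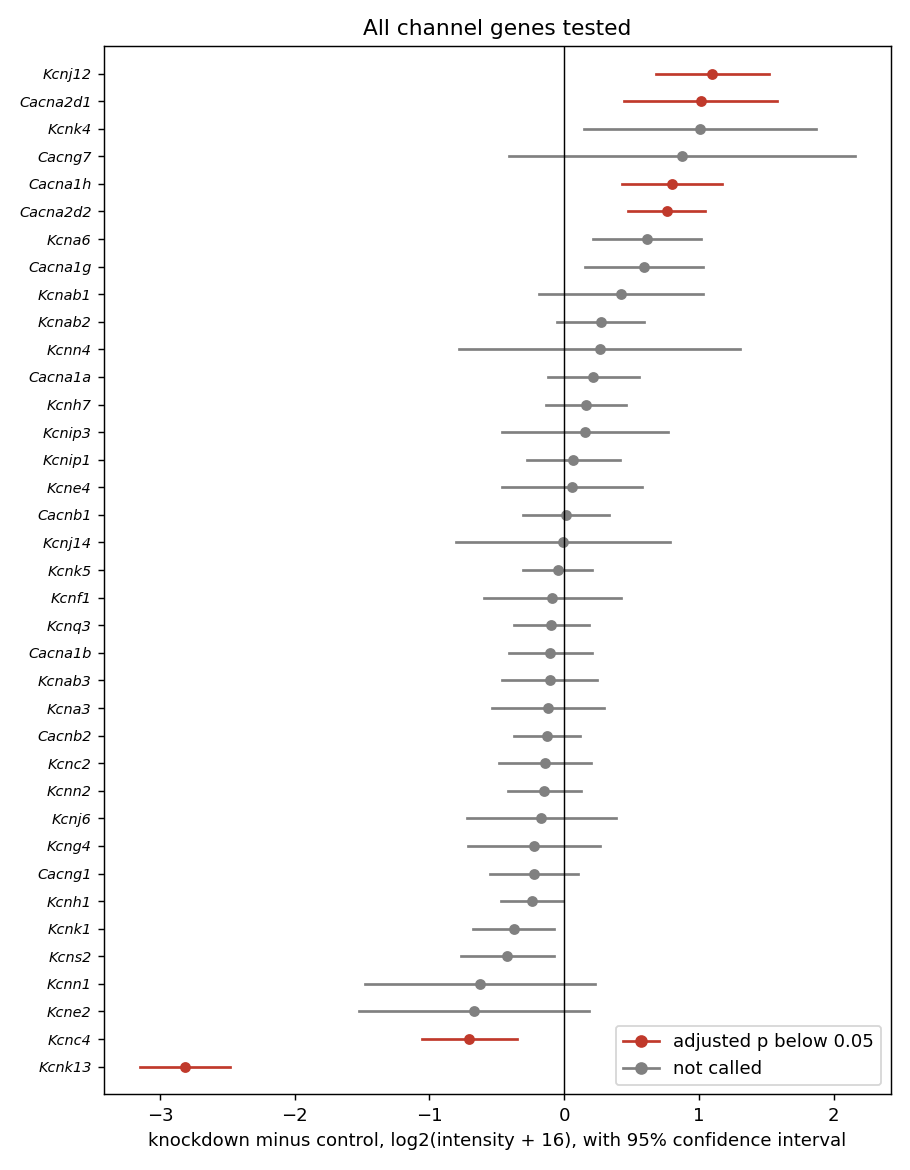
Knockdown minus control for all 37 tested channel genes on the log2(intensity + 16) scale (horizontal axis), with 95% confidence intervals from limma, ordered by size with the highest at the top. Kcnk13, at -2.81, stands apart from the rest, which lie between -0.70 and 1.10.

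The intervals show what the 31 genes without a call leave unresolved. Half-widths of their 95% intervals ran from 0.23 to 1.28 on the log2 scale, and 23 of the 31 had a mean below 50 intensity units. A miss of the threshold there does not show equal levels.

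Other genes of ion transport also moved in both directions. Of 14 tested pumps, exchangers and cotransporters 5 rose and 2 fell, and for this list and those below the shares over all tested genes were 8.99% higher and 7.98% lower. Atp2a3, the calcium pump SERCA3, rose by 1.17 (SE 0.115, adjusted p = 0.0028), at 1294 ± 123 in knockdown cells and 563 ± 1.19 in control cells. The sodium-potassium pump subunit gene Atp1b2 rose by 0.81 (adjusted p = 0.0048), at 537 ± 10 in knockdown cells and 300 ± 15.4 in control cells. Its sister Atp1b1 fell by 0.79 (adjusted p = 0.0079), at 5034 ± 367 in knockdown cells and 8692 ± 354 in control cells, a call that ended when either control array was omitted (adjusted p up to 0.057). Fxyd3, a small regulator of the same pump, was below background in all knockdown arrays and at 108 ± 8.90 in control cells. That is at least 3.44-fold lower (limma adjusted p = 0.00081), but Fxyd3 was tested only because of the control arrays. These 2 beta subunit genes thus moved in opposite directions.

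Calcium release and store-operated entry genes gave 1 rise among 5 tested, in the IP3 receptor gene Itpr3 (0.46, adjusted p = 0.040). Of 16 tested related cation channels 2 rose and 1 fell. The pacemaker channel gene Hcn2 and Pkd2l1, a polycystin-family channel gene, rose by 0.48 and 1.06 (adjusted p = 0.033 and 0.020), and Tpcn1, an endolysosomal channel gene, fell by 0.44 (adjusted p = 0.031). Of 12 tested regulators and scaffolds, Fgf13, which binds sodium channels, rose by 0.61 (adjusted p = 0.013) and the anchoring protein gene Akap9 fell by 0.53 (adjusted p = 0.048). The calls of Itpr3, Hcn2, Tpcn1 and Akap9 were lost without any 1 array (adjusted p up to 0.17, 0.16, 0.14 and 0.22). That of Fgf13 was lost without either control array (adjusted p up to 0.080), and that of Pkd2l1 without either control array or knockdown replicate 3 (adjusted p up to 0.11). The medians of the 4 lists were 0.25, -0.23, 0.10 and -0.05, in the order of their description, against 0.00 over all genes.

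Channel genes are typical of nerve and muscle, so markers of those cells are given beside the rises. Of 8 tested neuronal markers 3 rose and 2 fell, and the summed intensity of the 10 with a probe was 2420 to 2691 in knockdown arrays and 1631 to 1713 in control arrays. Part of that sum was 1 gene, the growth cone gene Gap43, which rose by 1.23, at 902 in knockdown cells and 377 in control cells on average. The neurofilament gene Nefm was below background in all knockdown arrays and at least 1.30-fold lower (limma adjusted p = 0.016). Nefm was thus tested only because of the control arrays. The synaptic vesicle gene Syp fell by 0.86 (limma adjusted p = 0.018). Both calls were lost without either control array (adjusted p up to 0.11 and 0.10), and the dendrite gene Map2 and another neurofilament gene, Nefl, were not tested. Of 3 tested markers of heart and skeletal muscle, the alpha-actinin gene Actn2 rose by 1.34 and the other 2 were not called, with a list median of 0.10. The sum of 7 was 1258 to 1385 in knockdown arrays and 547 to 567 in control arrays, of which Actn2 alone made up 1184 and 459 on average. The troponin gene Tnnt2 and the muscle regulator Myog were not tested. Of 4 smooth muscle markers only Acta2 was tested, and it rose by 2.46 (adjusted p = 0.0010). The sum of these 4 was 410 to 583 in knockdown arrays and 73.8 to 86.4 in control arrays. Tagln, Cnn1 and Myh11 were above background on fewer than 2 arrays. Of 2 tested endothelial markers and 1 tested glial marker none was called by limma. The endothelial markers Kdr and Tek and the glial markers Gfap and S100b were not tested. Summed over all listed markers with a probe, endothelial intensity was 222 to 249 in knockdown arrays and 224 to 276 in control arrays. Glial intensity was 34.2 to 45.2 in knockdown arrays and 35.6 to 40.8 in control arrays. The part of other cell types in the channel genes' differences was not tested.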

How the data were processed

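The deposited series table held 1 normalized intensity per probe and sample on a linear scale, from Illumina arrays of biotinylated cRNA, per the labels' protocols. In it 29.1% to 29.2% of each array lay below 0 and the sorted arrays differed by at most 0.394, so background subtraction and a common distribution came before deposit; their software is not stated. Of a second deposited table, 10 per-sample columns could not be tied to a sample by their headings and were left out. Values below 0 were set to 0, 16 was added and log2 taken. The noise threshold was the 90% quantile of each array's negative values, taken as sizes. Probes above it on at least 2 arrays, 13624 in all, were tested in limma 3.58.1 under R 4.3.3 (lmFit, eBayes), with all arrays and no covariate, and adjusted together by Benjamini-Hochberg. The brightest tested probe, by its mean over all arrays, stood for a gene. A gene symbol was given for 20984 probes, several for 1 and none for 3628; none needed updating against RefSeq. An "at least" fold compares the brighter group's mean log2 value with the dimmer group's, each dim value raised to the threshold. It is not a confidence limit. Permuting 5 arrays cannot give p below 0.1. The fit was tested on simulated data. Python 3.11.15, pandas 2.3.3 and matplotlib 3.10.9 were used for tables and plots.

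The channel genes, the lists of ion transport genes and the marker lists were chosen with earlier results of these data known. The naming rule took all called members, members above background in 1 group only, the 10 members without a call whose probes had the highest means, and up to 2 called genes per direction of each other list; further genes were named after their values were seen. Alternatives were 2 other offsets, 3 other filters, another variance model, another probe rule, centred arrays, the replicate number as a block, and each array left out.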

Additional observations from a re-analysis of the deposited data

How the results depend on the processing

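The falls of Sox17 and Sox7 were called under every alternative tried, with differences of -2.68 to -2.42 and -1.49 to -1.31. Among the channel genes, Kcnk13 was called in all 14 alternatives (-3.04 to -2.30). Kcnj12 was called in 12 of 13, Cacna2d2 in 11 of 14, Kcnc4 in 9, and Cacna1h and Cacna2d1 in 8 each, and none changed direction. These alternatives are not independent checks. The other probe rule left these channel genes unchanged, and centring the arrays barely moved them. The replicate block gave the same differences as leaving out knockdown replicate 3. With no filter on dim probes, probes at background join the adjustment. Then 0 channel genes were called higher and 1 lower by limma, beside 367 and 403 of all genes. The ion transport lists then gave 4 higher and 3 lower. An offset of 64 gave 1245 higher and 1168 lower calls over all genes, and 5 higher and 3 lower channel genes. A variance trend with a robust prior gave 1365 higher and 1264 lower calls over all genes. With the replicate block, all genes gave 416 higher and 412 lower calls, the ion transport lists 3 and 2, and the channel genes 5 and 2; Cacna1h was then not called (adjusted p = 0.062). The replicate numbers are not shown to pair the samples, since deviations of same-numbered arrays correlated at 0.0072 and 0.073. Leaving out 1 array gave 2 to 5 higher and 1 to 2 lower channel genes, 224 to 536 higher and 220 to 572 lower calls over all genes, 2 to 5 and 1 to 2 in the ion transport lists, and 33 to 36 channel genes above background. Requiring all 5 arrays above the noise threshold left 20 channel genes, and the 99% noise quantile left 27. Signal over background limits the rest: most tested channel probes lie close to the noise threshold, where the offset shrinks differences.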
